A study of Bos taurus with 48 samples.

Results

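The constitutive proteasome subunits were represented on the bovine array by 37 of its 21475 probes, which fell into 35 genes. A probe was taken when its gene name, or the symbol in its description, began with PSMA, PSMB, PSMC or PSMD followed by a number. PSMB8, PSMB9 and PSMB10, the subunits of the immunoproteasome, were left out. The 35 genes comprised 8 alpha and 7 beta subunits of the 20S core, 6 ATPases and 11 other subunits of the 19S regulatory particle, and 3 factors that assemble the 19S base and do not stay in the finished particle (PSMD5, PSMD9 and PSMD10). All 35 genes passed the filter on dim probes and were among the 14789 genes tested.

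The 26S proteasome degrades proteins that carry a ubiquitin chain. The alpha rings of the 20S core gate the chamber and the beta rings hold the proteolytic sites, in PSMB5 (chymotrypsin-like), PSMB6 (caspase-like) and PSMB7 (trypsin-like). The 19S particle binds the ubiquitin chain, removes it, unfolds the substrate with its ring of PSMC ATPases and feeds it into the core. In skeletal muscle this pathway carries out much of the breakdown of myofibrillar proteins during fasting and disuse.

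RNA of the longissimus muscle of 35 cattle was hybridised to 48 two-colour arrays, which gave 96 channels. Development was followed in Piedmontese × Hereford and Wagyu × Hereford animals, hybridised against each other, at 60, 135 and 195 days of gestation (12 animals), at birth (6 animals) and at 3, 7, 12, 20, 25 and 30 months (9 animals, sampled repeatedly). At 60 days each cross was 1 animal on 3 arrays. The diet arrays set Belmont Red cattle on a restricted diet, given as weight loss in the labels, against others on a weight growth diet at times 0, 1 and 2. They held 4 restricted and 4 growth animals at time 0, 3 and 4 at time 1, and 2 and 2 at time 2. What the diet times stand for in days, and whether time 0 precedes the diets, is not given in the labels. The paper that reported these data describes them as adult times in an experiment of nutritional deprivation and re-alimentation. It does not say which time belongs to which phase. All values are normalised log2 intensities, and a difference of 1 on this scale is a 2-fold change.

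Between 51.1% and 78.9% of probes per array were well above background. Of the 37 member probes, 35 were well above background in all 96 channels, that of PSMB1 in 74 and that of PSMA8, a testis form of the alpha subunit PSMA7, in 43, and no member probe was saturated in any channel. No fold change is given for PSMA8 because so many of its values lie at background. A 135-day animal, the Piedmontese × Hereford fetus GP672, stood apart. All 8 skeletal muscle markers were lower in it and all 4 adipocyte markers higher than in the other 4 animals of that age, with the muscle actin ACTA1 at 9.96 against 16.79 to 17.57 and the fatty acid carrier FABP4 at 16.62 against 8.96 to 11.69. Counts of called proteasome genes are given with and without it for the comparisons that include its age. The 60-day to newborn samples shared 3 slides, whereas the samples from 3 months onward were on other slides, so stage and slide cannot be told apart in any comparison across birth and 3 months. Tissue RNA was measured, so that fewer cells of a type and less RNA per cell cannot be told apart.

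The following probes are printed because the results turn on what they measure. The first is 1 of the 2 probes of the alpha subunit PSMA7, whose description names PSMA8 while its accession is that of PSMA7. The 2 probes gave opposite changes between prenatal and post-natal animals. The second belongs to PSMB3, a beta subunit without a proteolytic site, and the third to PSMC3, an ATPase of the 19S base. PSMB3 and PSMC3 were both higher on the restricted diet at time 1, and at birth PSMB3 rose by 0.29 while PSMC3 did not pass the test. Each is the 60-base probe as deposited, printed 5′ to 3′ with no part in capitals, and each holds at least 1 reading frame without a stop over its whole length.
PSMA7 (described as PSMA8): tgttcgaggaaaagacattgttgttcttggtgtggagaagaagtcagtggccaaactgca
PSMB3: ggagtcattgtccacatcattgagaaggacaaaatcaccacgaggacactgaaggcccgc
PSMC3: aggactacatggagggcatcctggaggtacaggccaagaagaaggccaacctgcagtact

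Post-natal muscle held more RNA of nearly every proteasome subunit than fetal muscle. In the comparison of 12 prenatal with 9 post-natal animals, 32 of the 35 genes were higher and 2 lower after birth, and the median difference was 0.71 against 0.03 over all genes tested (limma, Benjamini-Hochberg adjusted p below the threshold of 0.05). This contrast was wide, since 39% of all genes tested were called higher and 35.6% lower. Each post-natal value here was the mean over the ages at which that animal was sampled, whereas each fetus had 1 age. The post-natal ranges of this comparison are thus ranges of averages. In 24 members every post-natal animal lay above every prenatal one, which held for 21.5% of all genes. Without GP672, 34 members were again called and the median difference was 0.70.

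Markers of cell types differed across the same comparison. The summed intensities given for them are per animal and age, not averaged over ages. All 4 erythroid genes were lower after birth, with summed linear intensities of 105000 to 459000 in prenatal and 735 to 42200 in post-natal animals. All 5 fibroblast genes were lower (135000 to 312000 and 14200 to 72100), and 3 of 4 endothelial genes were lower and 1 higher (6210 to 20700 and 3910 to 9060). Of 8 skeletal muscle genes 5 were higher (13100 to 749000, the lowest in GP672 at 135 days, and 674000 to 1190000), as were 4 of 5 immune genes and 1 of 4 adipocyte genes. Of the markers tested, the erythroid ALAS2 was well above background in the fewest channels, 36 of 96. The part of the markers in the difference of the proteasome genes was not tested.

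All 8 alpha subunits were called higher after birth, among them PSMA8, whose probe was well above background in 5 of 18 prenatal channels. The largest change was in PSMA2, which ranged from 8.94 to 9.28 (median 9.11) in prenatal and from 10.68 to 10.92 (median 10.75) in post-natal animals, a difference of 1.65 ± 0.05 (SE, adjusted p = 2.0e-17). The 2 groups of PSMA2 values were thus more than 1 unit apart. PSMA3 and PSMA1 followed with 1.63 and 1.28. PSMA4, PSMA5 and PSMA6 had smaller differences of 0.52 to 0.53. PSMA7 was called higher by 0.27 ± 0.08 (adjusted p = 0.0066), but its probes moved in opposite directions: the unambiguous probe differed by -0.61 and the probe described as PSMA8 by 1.15. The direction of PSMA7 between prenatal and post-natal animals is therefore not settled by these probes.

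Of the 7 beta subunits 6 were higher. PSMB5 led with prenatal values of 13.25 to 13.86 (median 13.54) and post-natal values of 14.21 to 14.65 (median 14.50), a difference of 0.97 ± 0.08 (adjusted p = 1.9e-10). The caspase-like PSMB6 ranged from 13.15 to 13.63 (median 13.34) before birth and from 14.18 to 14.35 (median 14.25) afterwards, a difference of 0.91 ± 0.06 (adjusted p = 3.2e-12). The third catalytic subunit went the other way: PSMB7 ranged from 14.89 to 15.23 (median 15.04) in prenatal and from 14.53 to 15.09 (median 14.92) in post-natal animals, a fall of 0.15 on the log2 scale with overlapping groups (adjusted p = 0.029). The call of PSMB7 was lost without array replicate 1 and with quantile normalisation. PSMB2, PSMB3 and PSMB4 rose by 0.46 to 0.62. PSMB1 was also called higher, but its probe was well above background in 11 of 18 prenatal and 38 of 48 post-natal channels, so that no size is given.

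The ATPases were the most even group, as all 6 rose, by 0.75 (PSMC3) to 1.30 (PSMC2). PSMC2 ranged from 12.59 to 13.04 (median 12.77) in prenatal and from 13.83 to 14.25 (median 14.11) in post-natal animals, with a difference of 1.30 ± 0.07 (adjusted p = 2.3e-13). Of the other 19S subunits 10 of 11 rose. PSMD12, a subunit of the 19S lid, had the largest difference, 1.28 ± 0.07 (adjusted p = 9.0e-13), from 9.69 to 10.37 (median 10.13) in prenatal to 11.20 to 11.53 (median 11.32) in post-natal animals. PSMD1, the large scaffold subunit of the base, rose by 1.23 and PSMD14, the lid subunit that cuts off ubiquitin chains, by 1.09. PSMD13 of the lid did not pass the test (difference -0.13, adjusted p = 0.19). Among the assembly factors PSMD9 and PSMD5 rose by 0.50 and 0.24, while PSMD10, also known as gankyrin, fell by 0.46 on the log2 scale (adjusted p = 0.0036) with prenatal values of 9.96 to 11.16 (median 10.66) and post-natal values of 9.89 to 10.35 (median 10.12).

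**Figure D1:**
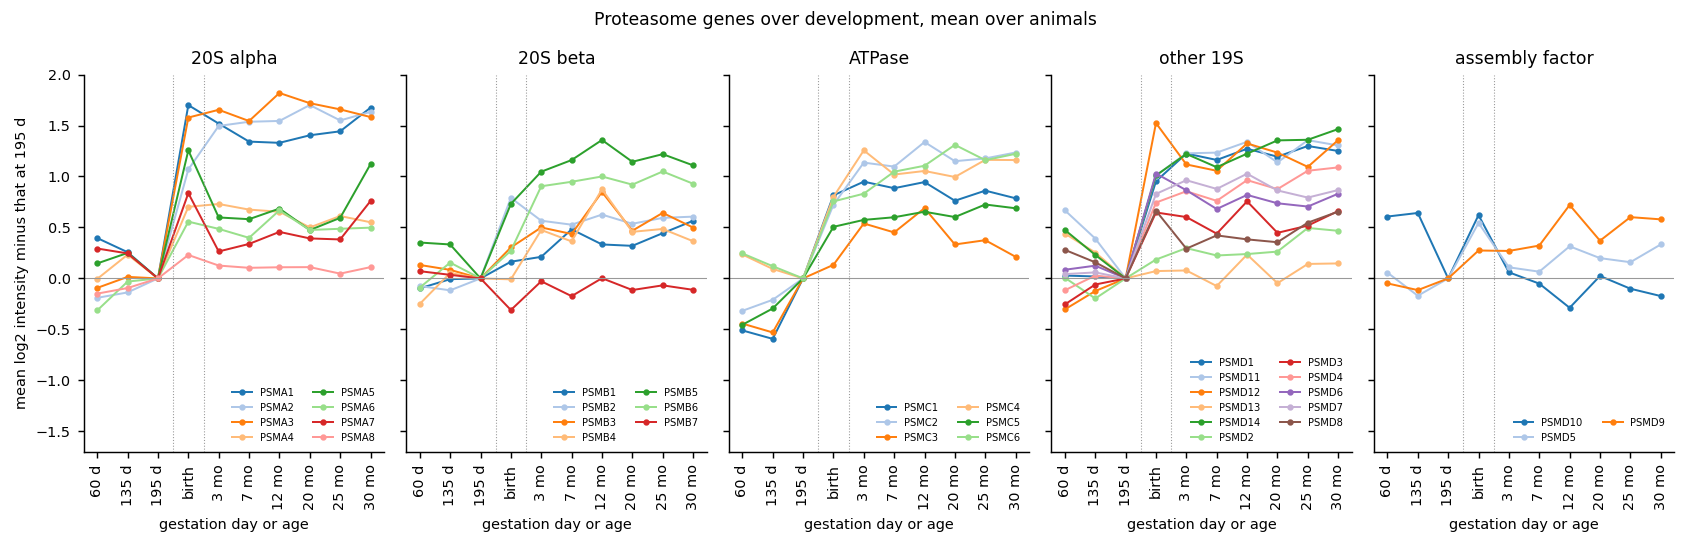
Mean normalised log2 intensity of each proteasome gene at the 10 developmental time points, minus its mean at 195 days of gestation, in 5 panels by structural group, with gestation day or age on the horizontal axis and 1 line per gene. Dotted vertical lines set off birth. Most lines stand higher from birth onward than at the 3 fetal time points, while PSMA7, PSMB4, PSMB7, PSMD10 and PSMD13 do not at every age.

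The timing of the change was examined next through the single steps. From 60 to 135 days no member was called, none at an unadjusted p under 0.05 either, whereas 9.55% of all genes were called in this step. From 135 to 195 days 3 members were higher and 1 lower, against 7.06% and 7.55% of all genes. PSMC1, an ATPase, had values of 11.39, 11.42, 11.51, 11.66 and 11.89 in the 5 animals at 135 days and of 11.85, 11.91, 12.25, 12.33 and 12.48 at 195 days, a difference of 0.64 ± 0.15 (adjusted p = 0.0019). PSMC3 rose by 0.56 (adjusted p = 0.0061) and PSMC5 by 0.28 (adjusted p = 0.038). PSMD10 had values of 10.44, 10.78, 10.79, 11.03 and 11.16 at 135 days and of 9.96, 10.08, 10.14, 10.26 and 10.53 at 195 days, a fall of 0.72 on the log2 scale (adjusted p = 0.019). In both PSMC1 and PSMD10 the groups overlapped by a single animal. These few calls were fragile: 1 member was called without array replicate 1, none without replicate 2 and 3 without GP672. Over all genes 981 and 1092 were called without replicates 1 and 2, against 2161 in the reported fit. In the same step 5 of 8 skeletal muscle markers rose (summed 13100 to 531000 at 135 days and 568000 to 749000 at 195 days), and 2 of 4 adipocyte markers fell (1230 to 144000 and 620 to 1700). The lowest muscle sum and the highest adipocyte sum at 135 days were those of GP672, and the marker calls were not examined without it. Of the 4 endothelial and 5 immune markers 1 each rose, and no erythroid or fibroblast marker was called. Their part in the change of the proteasome genes was not tested.

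The main step lay between 195 days and birth. Here 28 of 35 members rose, 1 fell and 6 did not pass the test, with a median difference of 0.73 against 0.06 over all genes, of which 31.2% rose and 27.8% fell. In 25 members all 6 newborns lay above all 5 fetuses, against 24.8% of all genes. The mean of the 35 members, each centred on its own mean, lay between -0.58 and -0.57 at 60 days, between -0.65 and -0.53 at 135 days and between -0.63 and -0.56 at 195 days, but between -0.05 and 0.22 at birth and between -0.04 and 0.33 at 3 months. Since 195-day and newborn samples were hybridised on the same slides, the step was also computed within each slide. It was upward in 32, 32 and 34 of the 35 members on the 3 slides, with medians of 0.68, 0.62 and 0.79 against 0.05, 0.06 and 0.05 over all genes, and 31 members were higher on all 3 slides. The share of all genes that was upward was not computed for these slides. They hold the same arrays as the fit above, and fetus GP041A was on more than 1 of them, so they are not independent repeats.

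The alpha subunits had the largest median of the structural groups at birth, 0.97, and all 8 were called higher. PSMA1 had values of 11.85, 12.04, 12.05, 12.10 and 12.15 at 195 days and ranged from 13.36 to 14.07 (median 13.82) at birth. Every newborn thus exceeded every fetus by more than 1 unit, and the difference was 1.71 ± 0.15, a 3.27-fold change (adjusted p = 9.8e-14). PSMA3 rose by 1.59, PSMA5 by 1.26 and PSMA2 by 1.07. PSMA7 was called higher by 0.86 ± 0.14 (adjusted p = 1.4e-06), but its unambiguous probe alone differed by 0.23 and did not pass the test.

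The beta ring moved less and unevenly. PSMB2, PSMB3, PSMB5 and PSMB6 were called higher, PSMB7 lower, and PSMB1 and PSMB4 (0.00) did not pass the test. PSMB2 had values of 11.83, 11.87, 11.90, 11.95 and 11.95 at 195 days and ranged from 12.40 to 12.92 (median 12.68) at birth, a difference of 0.78 ± 0.14 (adjusted p = 3.4e-06). The chymotrypsin-like PSMB5 had values of 13.25, 13.26, 13.34, 13.36 and 13.40 at 195 days and ranged from 13.83 to 14.37 (median 14.02) at birth, with a difference of 0.73 ± 0.13 (adjusted p = 4.4e-06). In both genes the 2 groups were clear of each other.

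PSMB6 changed less at this step. It had values of 13.15, 13.28, 13.33, 13.34 and 13.44 at 195 days, and 4 of the 6 newborns, at 13.34, 13.35, 13.42 and 13.44, lay within or at the edge of that range while the Wagyu × Hereford newborns GW071 and GW175 stood at 13.88 and 14.04. The resulting difference was 0.26 ± 0.11 (adjusted p = 0.042), and its call was lost without array replicate 1, 3 or 4. PSMB7 had values of 14.89, 15.00, 15.00, 15.03 and 15.11 at 195 days and ranged from 14.53 to 15.05 (median 14.68) at birth, a fall of 0.32 on the log2 scale with overlapping groups (adjusted p = 0.028), and its call was lost without array replicate 1, 2 or 3. Differences between the catalytic subunits were not tested.

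Of the ATPases 5 of 6 rose, all except PSMC3 (difference 0.11, adjusted p = 0.51). PSMC4 had values of 12.06, 12.36, 12.45, 12.49 and 12.52 at 195 days and ranged from 12.96 to 13.38 (median 13.15) at birth, a difference of 0.78 ± 0.12 (adjusted p = 5.0e-07). The other 19S subunits rose in 9 of 11 cases, and PSMD2, the other large scaffold of the base, and PSMD13 did not pass the test at 0.19 and 0.04. PSMD12 had values of 10.04, 10.10, 10.20, 10.21 and 10.37 at 195 days and ranged from 11.55 to 11.97 (median 11.68) at birth, a difference of 1.54 ± 0.14 (adjusted p = 1.3e-12). Its 2 probes rose by 1.68 and 1.37. PSMD6, PSMD14 and PSMD11 of the lid rose by 1.06, 1.04 and 0.99. The assembly factor PSMD10, lower at 195 than at 135 days, stood at 10.11, 10.76, 10.81, 10.84, 11.06 and 11.32 in the newborns and was higher at birth by 0.65 ± 0.20 (adjusted p = 0.0051), a call lost without array replicate 1 or 2. PSMD5 rose by 0.56 and PSMD9 did not pass the test (0.27).

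**Figure D2:**
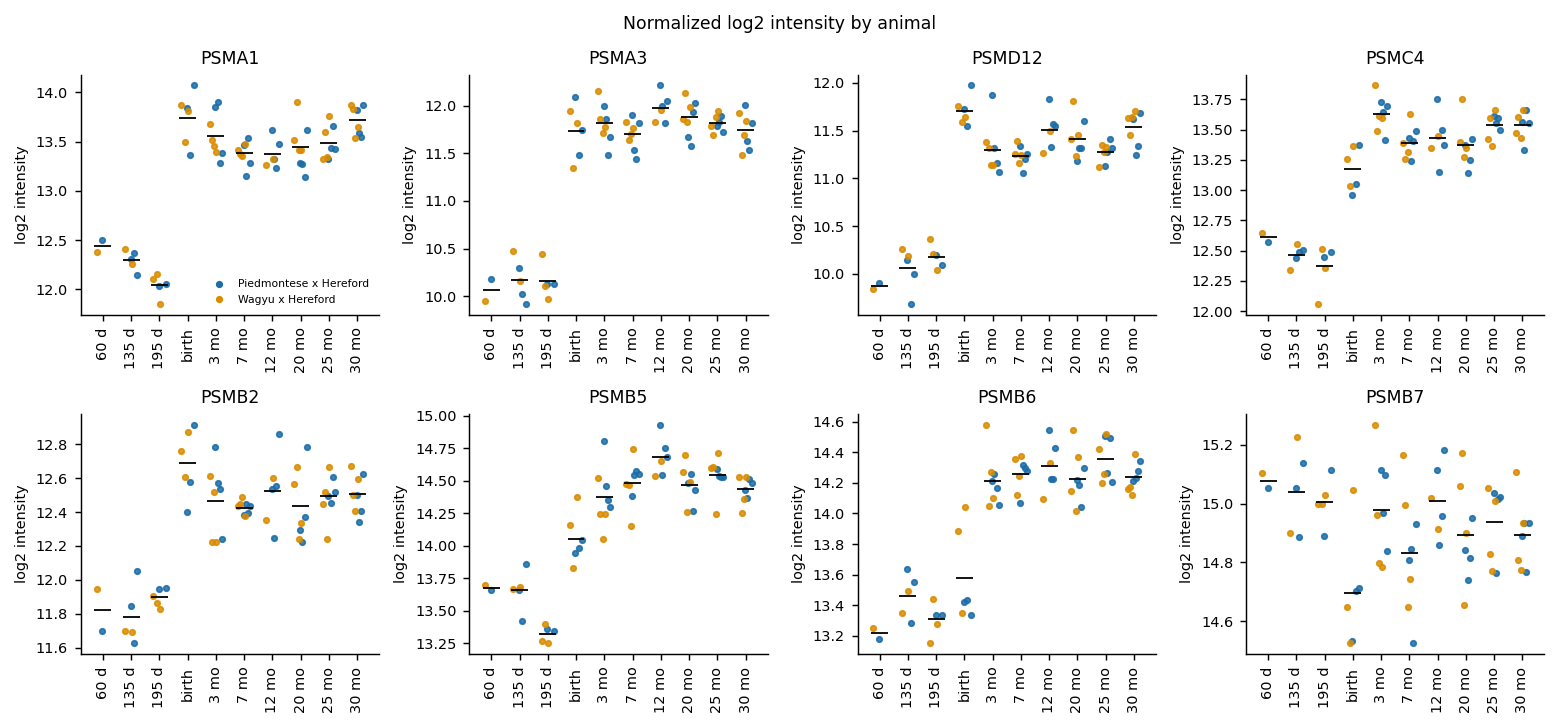
Normalised log2 intensity of PSMA1, PSMA3, PSMD12, PSMC4, PSMB2, PSMB5, PSMB6 and PSMB7 by developmental time point, with 1 point per animal coloured by cross and bars at the mean. The newborns stand clear of the 195-day animals in PSMA1, PSMA3, PSMD12, PSMC4, PSMB2 and PSMB5, whereas PSMB6 reaches its later level at 3 months and PSMB7 dips at birth.

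Markers of other cell types moved in the same step. All 4 erythroid genes fell, and their summed linear intensity ranged from 115000 to 246000 at 195 days and from 2130 to 4650 at birth. All 5 fibroblast genes fell (summed 135000 to 253000 and 16800 to 36100), and 3 of 4 endothelial genes fell while 1 rose (15500 to 20700 and 5650 to 7380). Of the 8 skeletal muscle genes 3 rose, with sums of 568000 to 749000 and 690000 to 934000. The part of these shifts in the change of the proteasome genes was not tested.

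From birth to 3 months 8 members were higher and 6 lower, against 20.9% and 19.1% of all genes, and the median difference was 0.08. The share of members higher was thus near that of all genes. PSMB6 ranged from 14.05 to 14.58 (median 14.19) at 3 months, above all 6 newborns, a difference of 0.63 ± 0.09 (adjusted p = 7.0e-07), so most of its post-natal rise fell into this interval. PSMC4 rose by a further 0.46 ± 0.11 (adjusted p = 5.5e-04) and PSMA2 by 0.43 ± 0.09 (adjusted p = 1.8e-04), and PSMB4, PSMC2, PSMC3, PSMB5 and PSMB7 by 0.28 to 0.48. PSMA5 fell by 0.66 on the log2 scale (adjusted p = 4.2e-04), from 14.20 to 15.24 (median 14.48) at birth to 13.53 to 14.41 (median 13.89) at 3 months, and the groups overlapped. PSMD10 fell by 0.56 (adjusted p = 0.0079) and PSMD12 by 0.41 (adjusted p = 0.0075), and PSMA7, PSMD5 and PSMD8 were also lower.

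After 3 months the calls depended on the fit. Over 3 to 20 months 2 members varied, PSMC6 and PSMB4, against 13% of all genes. The same animals were sampled repeatedly at these ages. With animal as a random block 11 members and 5727 of the 14789 genes tested were called. Slide as a block gave 6 members and 3665 genes. The ATPase PSMC6 had mean levels of 10.60, 10.81, 10.87 and 11.08 at 3, 7, 12 and 20 months (moderated F, adjusted p = 0.0095). The beta subunit PSMB4 had means of 14.98, 14.87, 15.38 and 14.96 and so was highest at 12 months (adjusted p = 0.045). PSMB4 lacked a value on 1 array at 3 months, so that 6 of the 8 animals entered there. From 25 to 30 months PSMA5 rose by 0.53 ± 0.14 (adjusted p = 0.014), with values of 13.73 to 14.28 (median 13.90) and of 14.30 to 14.84 (median 14.43), and PSMA7 by 0.38 (adjusted p = 0.034), against 6.17% of all genes called in either direction. With its unambiguous probe alone PSMA7 was not called in this step. Both counts depended on single sets of arrays. No member varied over 3 to 20 months without array replicate 3 and 1 without replicates 1 or 4, and from 25 to 30 months 1 was called without replicate 2 and none without replicates 3 or 4. Over all genes 473, 1195 and 868 varied over 3 to 20 months without replicates 3, 1 and 4, against 1916 in the reported fit. From 25 to 30 months 610, 300 and 320 genes were called without replicates 2, 3 and 4, against 913.

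No difference between the crosses passed the test in these genes. Between Piedmontese × Hereford and Wagyu × Hereford animals before and at birth no member passed the limma test, against 0.00676% of all genes (1 gene). At an unadjusted p under 0.05 there were 4 members, PSMC2, PSMC5, PSMD10 and PSMD14, which compares with 1212 of the 14789 genes tested, and each was lower in the Piedmontese cross, the largest difference being -0.30 in PSMD10. After birth no member had an unadjusted p under 0.05, and 0% of all genes were called although 792 had such a p. With the deposited log ratios in place of the intensities, 2 members were called after birth, 1 in each direction. So were 1536 of the 14789 genes tested.

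In the diet experiment the proteasome genes differed between the diets at time 1. Of the 35 members 17 were higher and 1 lower in restricted than in growth animals, and 17 did not pass the test, against 9.53% of all genes higher and 8.83% lower. The median difference was 0.45 against 0.00 over all genes. In 24 members all 3 restricted animals lay above all 4 growth animals, which held for 14.2% of all genes. In PSMA2 and PSMD10 the restricted animals lay below, and the share of all genes in that direction was not computed. The mean over the 35 members was between -0.18 and -0.07 in growth and between 0.22 and 0.43 in restricted animals.

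At time 0 the diets differed in 1 member, PSMD10, against 3.58% of all genes, and the median difference was 0.03. PSMD10 had values of 10.01, 10.19, 10.30 and 10.51 in growth and of 9.17, 9.44, 9.82 and 10.02 in restricted animals, a difference of -0.64 ± 0.15 (adjusted p = 0.033), and it lost the call when any of RG166, RG208, RG604, RL24, RL322 or RL671 was left out. PSMB5 stood at 14.24, 14.24, 14.30 and 14.31 in growth and at 14.43, 14.44, 14.51 and 14.53 in restricted animals at time 0, groups that did not overlap, but did not pass the test (difference 0.21, adjusted p = 0.25). At time 2, with 2 animals on each diet, no member was called and 0% of all genes were, while 1 member and 226 of all genes had an unadjusted p under 0.05. The median difference of the members was -0.02.

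The called members at time 1 came from every structural group. Of the alpha subunits PSMA5, PSMA6 and PSMA7 were higher. PSMA7 had values of 10.19, 10.29, 10.32 and 10.42 in growth and of 10.75, 11.34 and 11.69 in restricted animals, a difference of 0.94 ± 0.21 (adjusted p = 0.0077). In this contrast its 2 probes moved together, by 0.87 and 1.04. Of the 4 alpha subunits with the largest birth steps, PSMA5 was higher by 0.46 (adjusted p = 0.014), while PSMA1 at 0.41 (adjusted p = 0.17), PSMA3 at 0.00 and PSMA2 at -0.30 (adjusted p = 0.16) did not pass the test.

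Of the beta subunits 4 of 7 rose. PSMB3 had values of 13.05, 13.08, 13.17 and 13.21 in growth and of 13.80, 14.06 and 14.57 in restricted animals, a difference of 1.02 ± 0.15 or 2.03-fold (adjusted p = 0.00070). PSMB4, at 0.00 in the birth step, rose by 0.91 and PSMB2 by 0.63. The catalytic PSMB5 had values of 14.20, 14.27, 14.38 and 14.41 in growth and of 14.72, 14.80 and 15.10 in restricted animals, a difference of 0.55 ± 0.10 (adjusted p = 0.0019). Both other catalytic subunits had non-overlapping groups too but did not pass the test. PSMB6 stood at 13.95, 14.14, 14.20 and 14.32 against 14.35, 14.36 and 14.69 (difference 0.30, adjusted p = 0.059). PSMB7 stood at 14.67, 14.79, 14.88 and 14.90 against 14.92, 14.99 and 15.15 (difference 0.20, adjusted p = 0.13).

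Of the ATPases PSMC1, PSMC3 and PSMC5 rose. PSMC5 had values of 14.88, 15.07, 15.50 and 15.53 in growth and of 16.13, 16.22 and 16.39 in restricted animals, a difference of 0.94 ± 0.11 with clear groups (adjusted p = 1.7e-04). PSMC1 had the largest difference of all members, 1.25 ± 0.27 (adjusted p = 0.0064), but also the widest spread: growth animals stood at 12.71, 12.75, 12.77 and 13.58 and restricted animals at 13.72, 14.42 and 14.42. The growth animal RG166 stood alone at 13.58, next to the restricted animal RL24. PSMC3 rose by 0.81. PSMC2, PSMC4 and PSMC6, which rose at birth, differed by 0.41, 0.12 and 0.22 and did not pass the test.

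Of the other 19S subunits 7 of 11 rose. PSMD2 had values of 14.65, 14.72, 14.83 and 14.87 in growth and of 15.60, 15.76 and 15.92 in restricted animals, a difference of 1.00 ± 0.13 (adjusted p = 3.0e-04). PSMD1, its partner in the base, rose by 0.86 and PSMD3 of the lid by 0.80. PSMD8, PSMD4 (a ubiquitin receptor), PSMD11 and PSMD7 rose by 0.43 to 0.64. PSMD6, PSMD12, PSMD13 and PSMD14 did not pass the test at 0.12 to 0.54. None of the 3 assembly factors rose, and PSMD10 was lower in restricted animals, at 9.11, 9.24 and 9.35 against 9.85, 9.89, 9.92 and 10.12, by -0.68 ± 0.16 (adjusted p = 0.011).

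**Figure D3:**
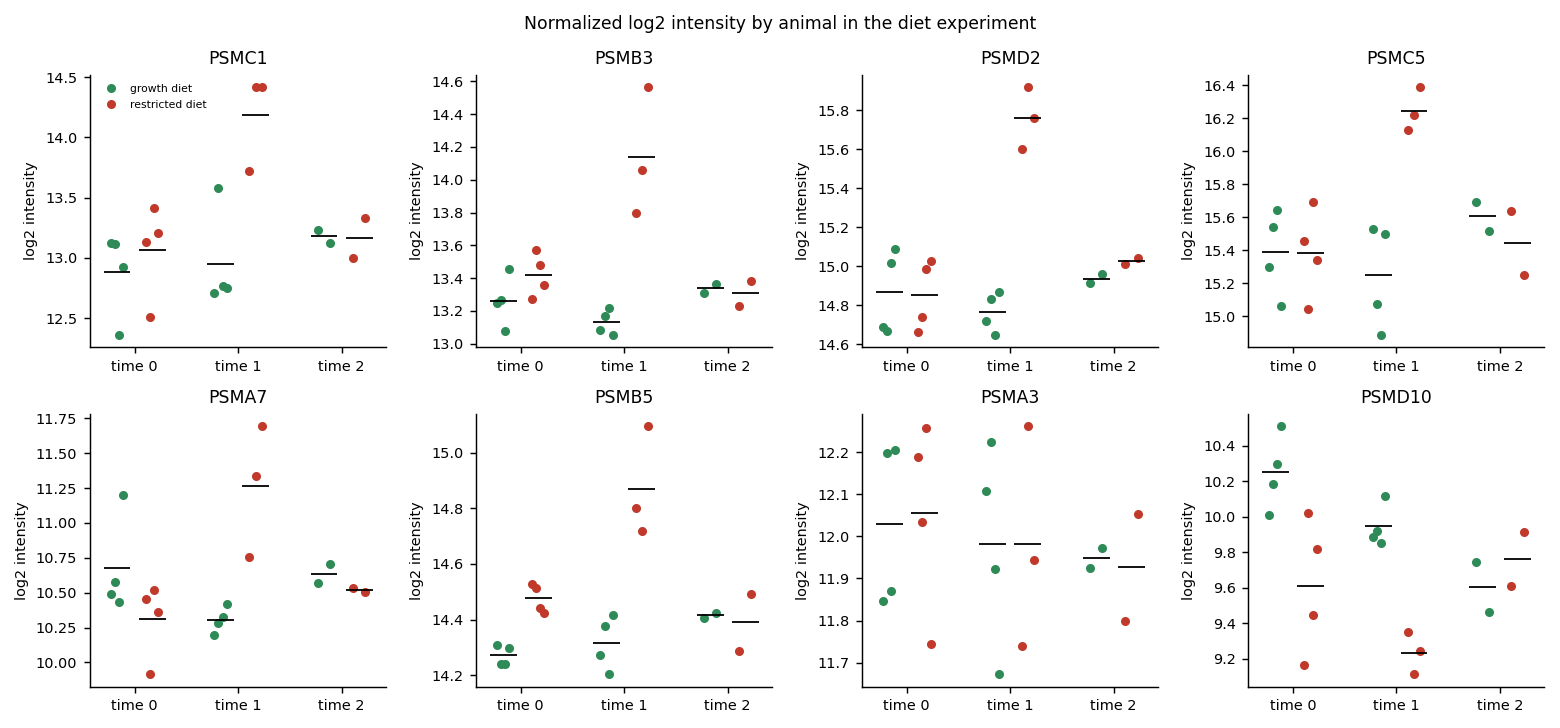
Normalised log2 intensity of PSMC1, PSMB3, PSMD2, PSMC5, PSMA7, PSMB5, PSMA3 and PSMD10 at diet times 0, 1 and 2, with 1 point per animal coloured by diet and bars at the mean. Restricted animals stand above growth animals at time 1 in the first 6 genes, overlap them in PSMA3 and lie below in PSMD10, and at times 0 and 2 the diets lie close together in most of these genes.

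Whether the diet difference itself changed from time 0 to time 1 was tested by an interaction contrast, in which the slide of each time cancels. The difference increased in 13 members and decreased in none, with a median of 0.44 against 0.00 over all genes, of which 5.38% increased and 5.12% decreased, and 21 members had an unadjusted p under 0.05, as did 3900 of the 14789 genes. The largest change was in PSMA7, 1.31 ± 0.27 (adjusted p = 0.0096), whose time 0 values were 10.43, 10.49, 10.58 and 11.20 in growth and 9.91, 10.36, 10.45 and 10.52 in restricted animals. Next came PSMD2 with 1.01 ± 0.16 (adjusted p = 0.0039) and PSMC5 with 0.95 ± 0.14 (adjusted p = 0.0027), and the largest change of a beta subunit was that of PSMB3 with 0.86 ± 0.19 (adjusted p = 0.013). PSMC1 changed by 1.07 ± 0.35 and did not pass the test (adjusted p = 0.062), as its restricted animals stood at 12.51, 13.13, 13.21 and 13.41 and its growth animals at 12.36, 12.93, 13.11 and 13.12 at time 0. Of the catalytic subunits none was called (PSMB5 0.35, PSMB6 0.24 and PSMB7 0.18). The other members called were PSMD1, PSMD3, PSMD8, PSMA6, PSMD7, PSMB4, PSMC3, PSMD11 and PSMD4.

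The diet counts rested on few animals. At time 1, 11 members were called, all higher, without array replicate 1 (RL27 and RG166) and likewise without array replicate 4 (RL671 and RG208). Over all genes 942 and 1174 were called without these replicates, against 2716 in the reported fit. PSMA7 and PSMD10 were among the calls lost in both cases, and PSMC1 was lost without replicate 4. With any single animal left out the count was 14 to 18. The interaction called none without array replicate 1, 4 without replicate 2 and 3 without replicate 4. Over all genes it called 66, 241 and 313 without these replicates, against 1552 in the reported fit. Leaving out single animals gave 5 without RG166, 7 without RG604, and 8 without RG208 or RL671. The medians moved less than the counts, from 0.39 to 0.59 at time 1 and from 0.33 to 0.56 for the interaction over the alternatives run.

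Tissue markers differed between the diets at time 1 as well. Of 8 skeletal muscle genes 6 were lower in restricted animals and 1 higher, and their summed linear intensity was 538000 to 554000 against 1220000 to 2110000 in growth animals. ACTA1 had the largest difference at -6.05 (adjusted p = 9.3e-09), the oxygen store MB differed by -2.54, and the intermediate filament gene DES was higher by 1.34. Of 5 fibroblast genes 4 were lower (summed 3870 to 6240 against 38300 to 111000), and of 4 endothelial genes 3 were lower (4820 to 5540 against 6910 to 10900). No adipocyte, erythroid or immune gene passed the test. The part of the tissue markers in the diet difference of the proteasome genes was not tested.

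**Figure D4:**
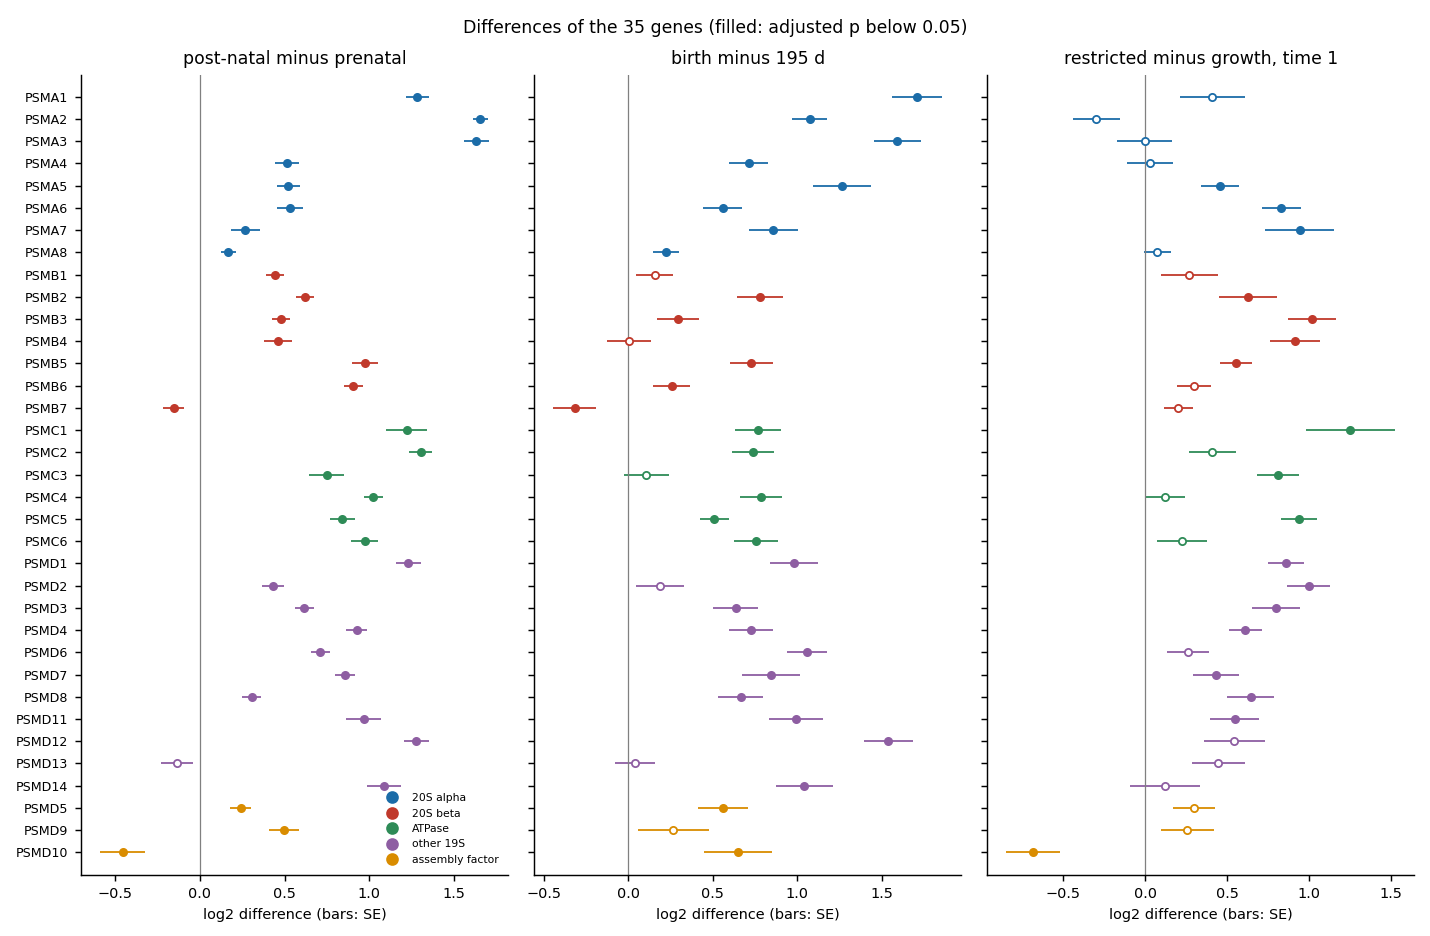
Log2 difference of each of the 35 proteasome genes in 3 panels, post-natal minus prenatal, birth minus 195 days and restricted minus growth diet at time 1, with bars of 1 SE and filled points where the adjusted p was below 0.05. Filled points lie to the right of 0 for 32, 28 and 17 genes in turn.

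The size of the diet difference did not follow that of the birth step. Over the 35 members the birth step and the diet difference at time 1 had a Pearson correlation of -0.17 and a Spearman correlation of -0.18, given as a description across genes, which are not independent replicates. Of the members 14 were called higher in both, 14 at birth only, 3 under diet only (PSMB4, PSMC3 and PSMD2) and 4 in neither. PSMA1, PSMA3 and PSMD12 had the largest birth steps with diet differences of 0.41, 0.00 and 0.54, whereas PSMC1, PSMB3 and PSMD2 had the largest diet differences with birth steps of 0.77, 0.29 and 0.19. The 2 experiments differed in animals, breed and slides, and the difference between the 2 contrasts was not tested.

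**Figure D5:**
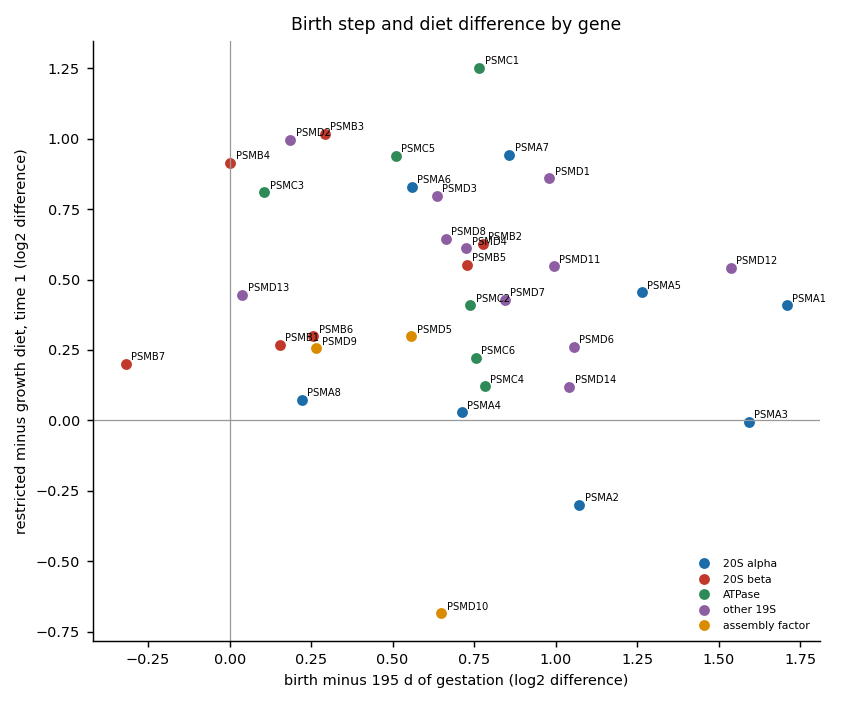
Log2 difference of the restricted against the growth diet at time 1 plotted on the log2 difference from 195 days to birth, 1 point per proteasome gene. The points show no common line, with PSMA1, PSMA3 and PSMD12 far to the right and PSMC1, PSMB3 and PSMD2 at the top left and centre.

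The rest of the pathway was described from a list of 43 further genes on the array, of which all but 1 were tested. Among the activators that cap the core, PSME3 and PSME4 rose from 195 days to birth by 1.47 ± 0.09 and 1.66 ± 0.23 (adjusted p = 2.3e-18 and 4.3e-08), while PSME1 and PSME2, the pair induced by interferon, fell by 0.95 and 1.29 on the log2 scale. In the prenatal to post-natal comparison PSME3, PSME4 and the inhibitor PSMF1 were higher by 1.36, 1.52 and 1.68, and PSME1 and PSME2 differed by -0.33 and -0.53. At diet time 1 PSME4 was the 1 gene of these 5 that passed the test, with a difference of 0.78 ± 0.20 (adjusted p = 0.017), which lost its call without RG157, RG166, RL24, RL27 or RL671.

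The immunoproteasome subunits had another timing. None of PSMB8, PSMB9 and PSMB10 passed the test from 195 days to birth (differences of -0.31, -0.35 and -0.16). PSMB8 and PSMB9 then rose by 1.77 and 1.43 from birth to 3 months and were higher in post-natal than in prenatal animals by 1.83 ± 0.21 and 1.46 ± 0.23. Of 5 immune cell markers 4 rose in each of these comparisons, and their summed linear intensity was 861 to 1530 in prenatal animals, 1120 to 1500 at birth, 2570 to 6030 at 3 months and 2170 to 11600 over all post-natal animals. The part of these markers in the rise of PSMB8 and PSMB9 was not tested. At diet time 1 their differences were -0.31 and -0.15 and that of PSMB10 was -0.58, and none of the 3 passed the test.

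Of the 4 core assembly genes 3 rose at birth and 2 at diet time 1, against 31.2% and 9.53% of all genes. POMP, which matures the core, had the smallest adjusted p of the pathway list at time 1, with a difference of 0.85 ± 0.09 (adjusted p = 9.9e-05), and its diet difference also increased from time 0, by 0.70 ± 0.12 (adjusted p = 0.0039). At birth POMP rose by 0.45. PSMG3 was higher under restriction by 0.56. Of the 3 regulators, NFE2L1, a transcription factor that drives proteasome genes when the proteasome is impaired, rose at birth by 1.33 ± 0.22 (adjusted p = 1.2e-06) and was higher at diet time 1 by 0.84 ± 0.27 (adjusted p = 0.044). This last call was lost without RG157, RG166, RG604, RL27 or RL671. NFE2L2 rose at birth by 1.18 and differed by 0.22 at time 1 (adjusted p = 0.32).

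The muscle ubiquitin ligases, some of which mark myofibrillar proteins for the proteasome, rose at birth in 4 of 8 cases and fell in 1. Over all genes 31.2% rose and 27.8% fell at birth, and 9.53% were higher and 8.83% lower at diet time 1. TRIM63, or MuRF1, rose by 4.59 ± 0.48 (24.1-fold, adjusted p = 2.8e-11) and FBXO32, or atrogin-1, by 3.47 ± 0.47 (11.1-fold, adjusted p = 2.2e-08). At diet time 1, where 17 proteasome genes were higher, none of the 8 ligases passed the limma test, although 2 had an unadjusted p under 0.05, with FBXO32 at 0.47 and TRIM63 at 0.11. FBXO32 was instead higher in restricted animals at time 0, by 1.91 (adjusted p = 0.011). The proteins that associate with the 26S particle (UCHL5 and USP14, which trim ubiquitin chains, among them) rose at birth in 5 of 5 cases, and at time 1 none passed the limma test or had an unadjusted p under 0.05. Of 9 shuttle and segregase genes 5 rose at birth and 2 at time 1, RAD23B by 0.67 and NPLOC4 by 0.69. Of the 5 ubiquitin and activating enzyme genes 2 rose and 1 fell at birth, and at time 1 there was 1 called in each direction.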

How the data were processed

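RNA of the longissimus muscle was labelled by the authors with Cy3 or Cy5 and scanned with Agilent Feature Extraction (9.5.1 in the submitters' processing notes). The deposited values are raw spot intensity, local background intensity and quality flags for each channel of 48 arrays, and the log10 ratio of the 2 dyes computed by the authors' scanner software. The series value table matched the scanner ratios at all spots (0 differing). Groups, dyes, animals and slides came from the sample labels. No genome build is named, and no column was left unmatched (0).

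Intensities were corrected by normexp with an offset of 50 and normalised by loess within and Aquantile between arrays with limma 3.58.1 under R 4.3.3, where control spots and spots carrying an outlier flag (2 to 797 per array) had no weight in the loess fit and were left out afterwards. Probes had to be well above background in at least 24 of 96 channels and missing on at most 4 arrays, and probes of a gene were averaged. The filter left 15820 probes of 14789 genes, and symbols came from the files and, through accessions, from RefSeq's ARS-UCD2.0 gene table (16484 of 21475 probes).

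A single value per animal, or per animal and time point, was tested with lmFit and eBayes (two-sided, Benjamini-Hochberg over all genes, threshold 0.05). Developmental steps were fitted with time point by cross, the Cy5 share and shared arrays as a random block (correlation 0.324). Diet was fitted with diet by time, the Cy5 share and animal as a random block (correlation 0.143). The animal codes GP041A and GP041B were counted as separate animals, and RL24 was on 2 arrays at time 1. Alternatives were background subtraction, quantile normalisation, other filters, the brightest probe, the deposited log ratios, other blocks and each array replicate or diet animal left out. The fits were tested on simulated data. The number of arrays limits the precision.

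The members and lists were chosen with earlier results of these data known. Named are, for each comparison and structural group, the called members with the largest rise and fall, the catalytic subunits, and the 5 members with the largest diet difference at time 1. Members outside this rule were named after their values were seen. Marker lists were skeletal muscle, erythroid, adipocyte, fibroblast, endothelial and immune genes.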

Additional observations from a re-analysis of the deposited data

Results flagged for a closer look

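In 5 of the 66 groups of 4 to 10 animals examined for the named members, a single animal stood far from the others of its group by Dixon's criterion, which chance meets in about 5% of groups. At diet time 0 the restricted animal RL27 had a PSMB6 value of 13.95 while the other restricted animals lay between 14.217 and 14.227. At diet time 1 the growth animal RG166 had a PSMC1 value of 13.58 against 12.712 to 12.765 in the other growth animals. The Wagyu × Hereford newborn GW175 had a PSMB7 value of 15.05 against 14.528 to 14.715. At 3 months GW169 had a PSMB6 value of 14.58 against 14.051 to 14.272, and GP112 a PSMD12 value of 11.87 against 11.062 to 11.379.

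The difference between the diets was larger at time 1 than at time 0 in 13 members by the interaction contrast. On the log2 scale the change was 1.306 in PSMA7, 1.009 in PSMD2, 0.9451 in PSMC5, 0.8833 in PSMD1, 0.8708 in PSMD3, 0.8577 in PSMB3 and 0.7933 in PSMD8. It was 0.753 in PSMA6, 0.7414 in PSMD7, 0.7047 in PSMB4, 0.6333 in PSMC3, 0.6288 in PSMD11 and 0.4845 in PSMD4.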

How the results depend on the processing

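The number of members called stayed within 1.5 times the reported one, under every alternative run, for the prenatal against post-natal comparison (33 to 34), the step from 195 days to birth (25 to 29) and the step from birth to 3 months (10 to 16). The step from 60 to 135 days, the crosses before and at birth and diet time 2 gave 0 under each alternative run. Over the step from 135 to 195 days the count was 4, and leaving out an array replicate or GP672 gave 0 to 4. For the variation over 3 to 20 months it was 2, 1 with no filter, 3 with quantile normalisation, with a filter of 48 channels or with the brightest probe, 11 with animal as a random block and 6 with slide as a replicate block, and leaving out a replicate gave 0 to 2. Over all genes the animal and slide blocks called 5727 and 3665 of 14789 here, against 1916 in the reported fit. For 25 to 30 months it was 2, 1 with no filter, with the brightest probe or with the unambiguous PSMA7 probe alone, 3 with animal as a random block, and 0 to 2 without a replicate. The crosses after birth gave 2 and diet time 0 gave 2 with the deposited log ratios, and leave-one-out gave 0 to 1 at diet time 0. Over all genes the log ratios called 1536 and 1055 in these comparisons. Diet time 1 gave 11 to 18 and the change from time 0 to time 1 gave 0 to 14 when a replicate or an animal was left out. PSMA7 in the prenatal against post-natal comparison reversed to -0.6116 with its unambiguous probe alone. Over all genes, leaving out a replicate called 981 to 1899 genes from 135 to 195 days, against 2161 in the reported fit. For 3 to 20 months it was 473 to 1359 against 1916, and for 25 to 30 months 300 to 610 against 913. At diet time 1 it was 942 to 1888 against 2716, and for the change from time 0 it was 66 to 1105 against 1552. The causes were not tested, and leaving out a replicate or an animal also left fewer channels.

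Array numbers follow the slide from 60 days to 20 months, whereas each slide of 25 and 30 months holds several numbers. Samples of different time points on the same slide deviated together on average but not in every pair. Their correlation was 0.00512 to 0.47 (mean 0.256, other pairs -0.129) over 60 days to birth and 0.0558 to 0.632 (0.349, others -0.116) over 3 to 20 months. At 25 and 30 months it was -0.213 to 0.564 (0.196, others -0.195). From 3 months onward same-slide samples often held the same animals, so slide and animal cannot be told apart there. With slide as a replicate block the counts were 0, 5, 29, 6 and 2 for the steps from 60 to 135 days, 135 to 195 days and 195 days to birth, the variation over 3 to 20 months and the step from 25 to 30 months. It could not be fitted from birth to 3 months, nor could the crosses before and at birth without replicate 2. Leaving out a 3-month array, GP672 or a PSMA7 probe was chosen after seeing the data. Of the single named genes, 72 values lost and 4 gained their call.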
